A study of Mus musculus with 2 samples.

Results

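Glycolysis and hypoxia response genes are a set of 34 genes out of the 32285 listed in the deposited gene tables, chosen by symbol and not by a measured value. The set covers sugar and lactate carriers, the enzymes from hexokinase to lactate dehydrogenase, a kinase that holds back pyruvate oxidation, and Hif1a with genes of the response to low oxygen. Aldoa named a second row with 0 and 2 UMIs, which was not used. A UMI (unique molecular identifier) marks 1 captured RNA molecule.

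The data are 2 droplet libraries (10x Chromium, 3' chemistry) of cells from mouse femoral marrow and of cells adhering to an intramedullary nail, a rod in the marrow cavity. All mice had an osteoporotic fracture. Mice of the Mg library carried magnesium nails and mice of the other library carried Mg-TAGelMA nails. Strain, age, the number of mice and the mixing ratio of both sources are not given in the sources used here. With 1 library per nail there is no test and no p-value: the values describe these 2 libraries, the nail and the library cannot be told apart, and each 95% interval covers counting error alone. Pairs of values below give Mg first and Mg-TAGelMA second.

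Glycolysis splits glucose into pyruvate in the cytosol and yields ATP without oxygen, and lactate dehydrogenase restores NAD+ by turning pyruvate into lactate. The HIF-1alpha protein encoded by Hif1a is hydroxylated by Egln enzymes when oxygen is present and then degraded; in low oxygen it persists and raises transcription of many glycolytic genes and of genes such as Bnip3 and Ndrg1. Neutrophils, which hold few mitochondria, and mature red cells, which have none, are known for living on glycolysis.

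HIF dimers recognise a short core, ACGTG or GCGTG. Promoter windows of 300 bases, from 250 before to 50 after a RefSeq start (GRCm38.p6), were at hand for 31 of the 34 genes, all but Bnip3l, Ndrg1 and Slc2a3. Both strands were searched, so that CACGT and CACGC also count, and CACGTG counts as 2 overlapping matches. A match was found in 38 of the 46 windows of these genes (82.6%) and in 14380 of 32851 windows of all genes (43.8%). The windows were not matched for their content of G and C. Windows of the same gene can overlap, as for Aldoa and Eno1, and a match in an overlap counts in each. The part of base content and overlap in the difference between these shares was not tested. The windows below run 5′ to 3′ on the gene's strand, with matches in capitals. Slc16a3 and Pfkfb4 are shown because both were high in mature neutrophil-like cells, and Ldha and Ldhb because these isoenzymes differed in their spread over types. They lie at chr11:120948817-120949116 (plus strand, 2 matches), chr9:108991652-108991951 (plus strand, 1 match), chr7:46845554-46845853 (plus strand, 7 matches) and chr6:142507908-142508207 (minus strand, 1 match).
Slc16a3: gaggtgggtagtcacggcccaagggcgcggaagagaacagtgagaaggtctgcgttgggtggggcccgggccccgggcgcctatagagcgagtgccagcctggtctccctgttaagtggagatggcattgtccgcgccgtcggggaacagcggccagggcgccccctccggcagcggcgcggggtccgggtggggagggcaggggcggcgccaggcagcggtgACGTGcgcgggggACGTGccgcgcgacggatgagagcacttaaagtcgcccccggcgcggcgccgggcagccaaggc
Pfkfb4: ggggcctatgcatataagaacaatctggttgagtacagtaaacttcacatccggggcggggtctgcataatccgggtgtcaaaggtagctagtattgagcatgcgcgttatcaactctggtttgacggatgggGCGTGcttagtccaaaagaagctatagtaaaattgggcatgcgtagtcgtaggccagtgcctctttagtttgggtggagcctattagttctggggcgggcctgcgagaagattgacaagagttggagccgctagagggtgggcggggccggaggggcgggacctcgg
Ldha: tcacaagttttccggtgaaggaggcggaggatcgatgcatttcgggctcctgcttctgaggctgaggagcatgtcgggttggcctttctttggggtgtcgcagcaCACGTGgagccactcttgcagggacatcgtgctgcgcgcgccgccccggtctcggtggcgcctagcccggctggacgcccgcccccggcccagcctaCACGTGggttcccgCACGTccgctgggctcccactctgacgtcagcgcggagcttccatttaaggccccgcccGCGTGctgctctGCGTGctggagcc
Ldhb: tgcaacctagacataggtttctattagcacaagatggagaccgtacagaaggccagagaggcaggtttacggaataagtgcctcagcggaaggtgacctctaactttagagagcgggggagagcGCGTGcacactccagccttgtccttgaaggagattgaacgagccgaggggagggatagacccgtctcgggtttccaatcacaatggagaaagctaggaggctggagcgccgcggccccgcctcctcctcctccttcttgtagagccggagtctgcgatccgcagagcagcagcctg
Ldha has a second window, at chr7:46846832-46847131 (plus strand, 2 matches), which is not shown and held 0 matches to ACGTG and 2 to GCGTG. The Ldha window shown held 5 matches to ACGTG and 2 to GCGTG, and 1.66% of all windows held 5 or more of either. A match describes letters and is not evidence of binding.

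The libraries held 9466 and 7591 barcodes with 58261391 and 79890998 UMIs, and 21 barcodes occurred in both. Barcodes over 15% mitochondrial UMIs numbered 1091 and 62. After filtering, 8122 and 7226 cells remained, with medians of 3803.5 and 6744 UMIs and of 3.49% and 1.69% mitochondrial UMIs. Cells were gated by marker scores, and 15.9% and 10.3% took no type. Names end in "-like" because they rest on RNA markers; a gate on a score cuts a range, and 827 and 536 cells lay within the margin of another lineage. In mature neutrophil-like cells the immature neutrophil markers had medians of 164 and 93.1 per 10000 UMIs, beside 264 and 429 for their own markers. The gene Gm42418 took 6.90% and 0.110% of all UMIs and 15.9% and 0.118% of those in mature neutrophil-like cells. It was left out of a total only together with other abundant genes, so its own part in the values was not tested.

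Levels are CPM, the UMIs of a gene scaled to a fixed total per type. Because 3' counting takes 1 end of each molecule, they are not divided by gene length. Gapdh, the dehydrogenase in the middle of glycolysis, was the most abundant of the 34 genes over all cells, at 634 and 1000.2 CPM. Gpi1, which isomerises glucose 6-phosphate, stood at 269 and 384 CPM, pyruvate kinase Pkm at 231 and 407 CPM and aldolase Aldoa at 143 and 286 CPM. Gapdh led in each of 15 gated types except mature neutrophil-like cells of the Mg library, where Gpi1 was at 617 CPM and Gapdh at 537 CPM. Aldoc was the scarcest, with 52 and 63 UMIs in all. For 19 of the 34 genes the same type was highest in both libraries.

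**Figure D1:**
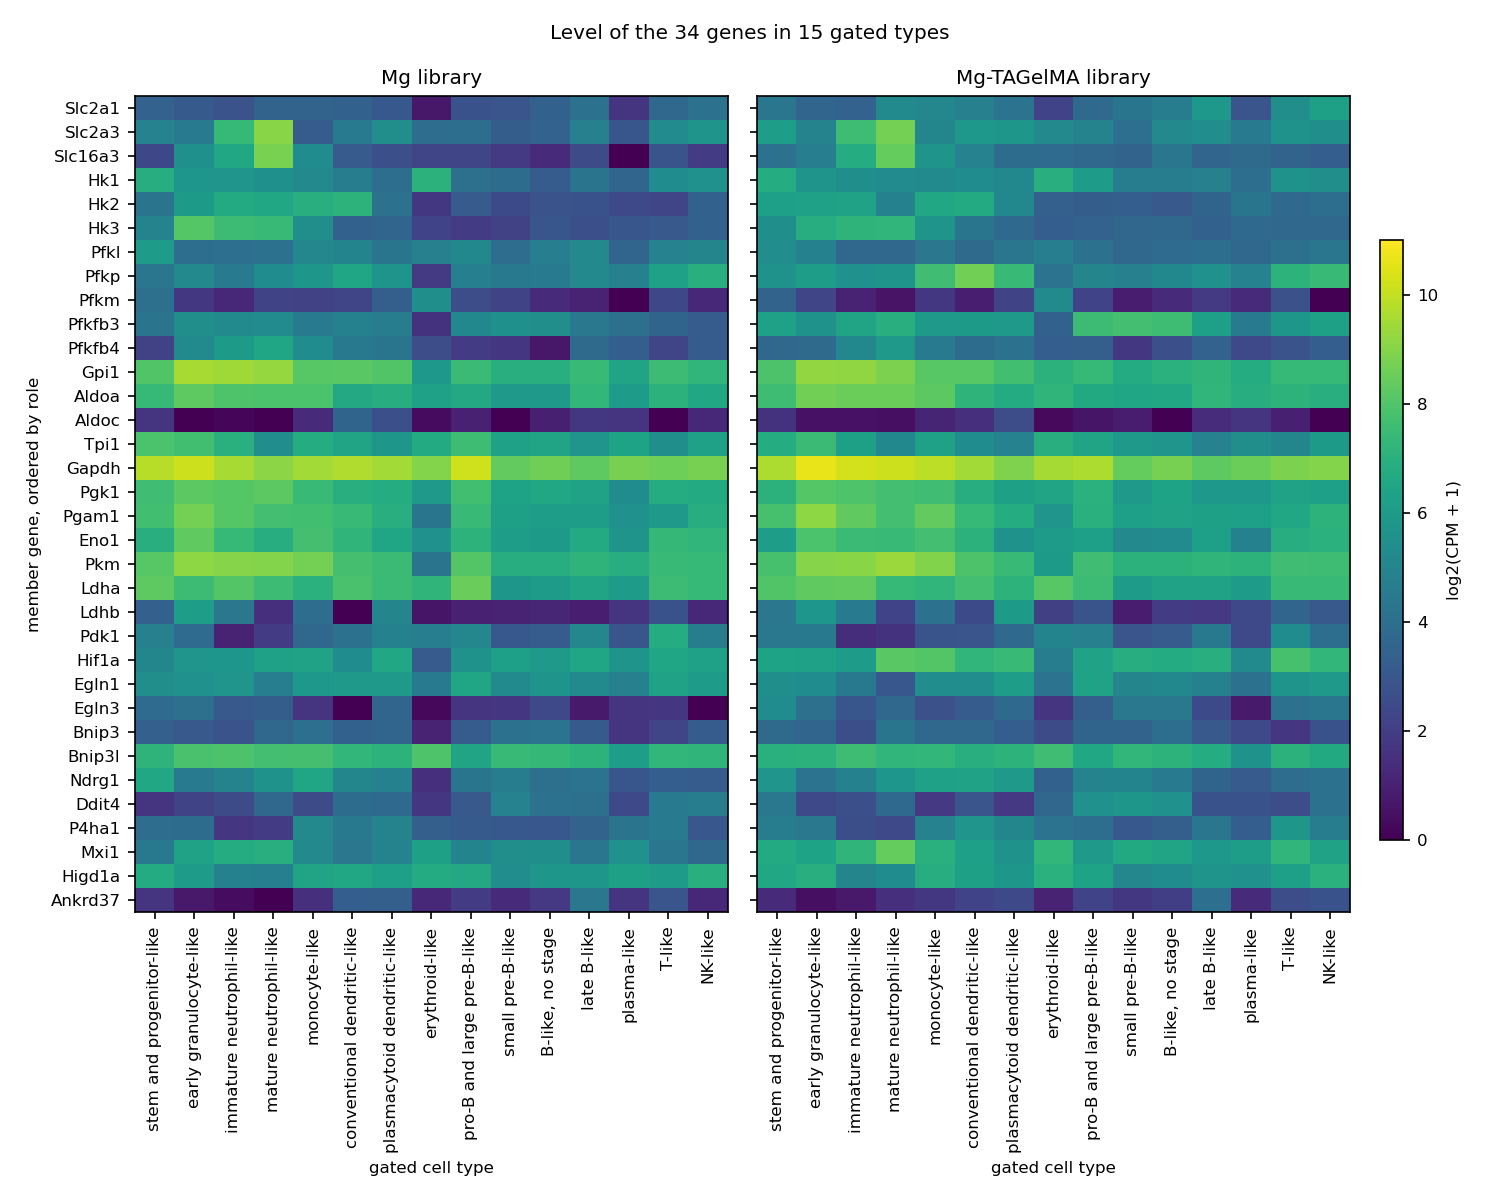
Level of the 34 genes (rows, by role) in 15 gated types (columns) of each library, as log2(CPM + 1). Gapdh is high throughout, at 634 and 1000.2 CPM over all cells, and Slc16a3 reaches 438 and 334 CPM in mature neutrophil-like cells.

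The glycolytic genes of the set together took 0.487% and 0.517% of UMIs in early granulocyte-like cells, 0.406% and 0.460% in immature neutrophil-like and 0.421% and 0.468% in mature neutrophil-like cells. Monocyte-like cells had 0.291% and 0.361%. Pro-B and large pre-B-like cells had 0.295% and 0.225%, small pre-B-like cells 0.110% and 0.130% and late B-like cells 0.135% and 0.137%. Erythroid-like cells had 0.127% and 0.198% and plasma-like cells 0.107% and 0.116%. These shares pool the UMIs of a type, so deep cells weigh more. Haemoglobin and immunoglobulin UMIs are part of the totals. The median over cells was 0.0500% and 0.150% in erythroid-like and 0.0942% and 0.0954% in plasma-like cells, which turns their order in the Mg library. It was 0.216% and 0.188% in pro-B and large pre-B-like and 0.260% and 0.333% in monocyte-like cells. The 3 granulocytic types lay above every lymphoid type in both libraries by either measure.

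To see which genes mark which type, each type was set against the other gated cells of its library, for types with at least 50 cells in each. A gene and type pair was called when its interval lay wholly beyond 2-fold in the same direction in both libraries and the higher side reached 50 CPM. By this rule 9 of 249 tested pairs were higher (3.6%, beside 7.42% over all genes) and 37 lower (14.9%, beside 9.76%). The 9 higher pairs held 9 genes, and 20 genes were in some pair. Thinning each cell to 1000 UMIs, which leaves fewer UMIs to count, ended 5 of the 9 higher calls (Pfkp, Ldhb, Hk1, Hk3 and Ndrg1) and 25 of the 37 lower calls, with no value for the 4 in plasma-like cells.

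**Figure D2:**
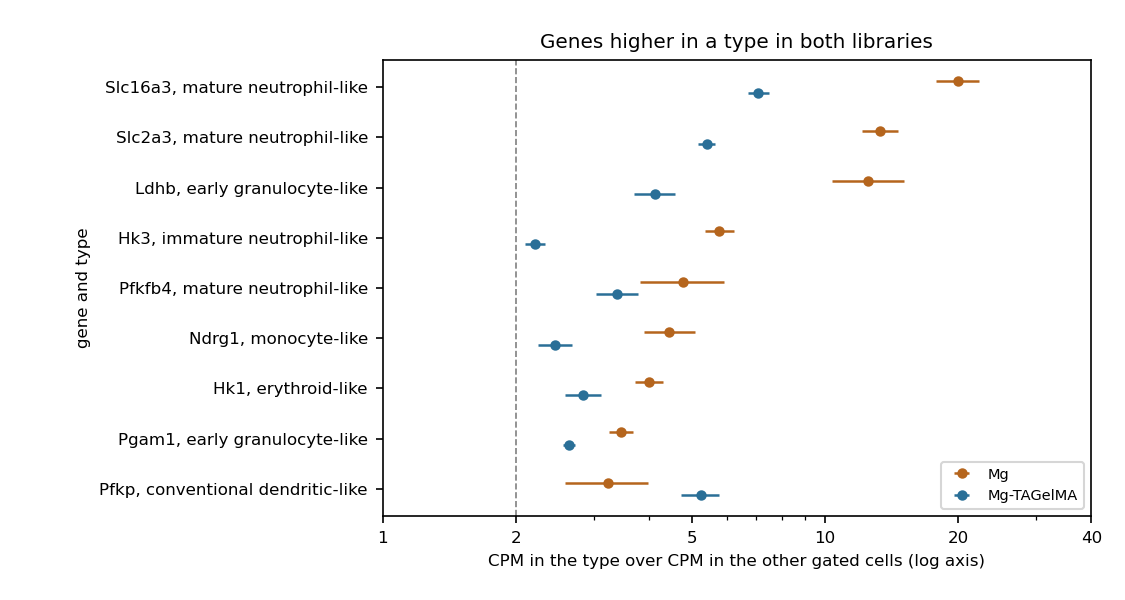
Ratio of CPM in the named type to CPM in the other gated cells, on a log axis, for the 9 pairs called higher, with exact 95% counting intervals; the dashed line marks 2-fold. The largest ratio in both libraries is that of Slc16a3 in mature neutrophil-like cells, at 19.96 (17.9 to 22.3) and 7.07 (6.71 to 7.46).

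In mature neutrophil-like cells, 3 of 18 tested genes of the set were higher (beside 12% over all genes) and 1 lower (beside 28.4%). Slc16a3 (chromosome 11, 120948480 to 120960868, mm10), the lactate exporter MCT4, stood at 438 and 334 CPM against 21.9 and 47.2 CPM in the other gated cells, a ratio of 19.96 (17.9 to 22.3) and 7.07 (6.71 to 7.46). Immature neutrophil-like cells came next, at 92.1 and 109.6 CPM. Slc2a3, the glucose transporter GLUT3, stood at 531 and 418 CPM against 39.8 and 77.3 CPM in the other gated cells, a ratio of 13.3 (12.1 to 14.6) and 5.41 (5.17 to 5.65). Both carriers thus had their highest level in the same type in both libraries. Triosephosphate isomerase Tpi1 went the other way, at 41.3 and 34.5 CPM, 0.357 and 0.382 times the others, a call lost without the cell filter, with Leiden clusters and after thinning.

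Thinned to 1000 UMIs per cell, 36.5% (137 of 375) and 28.9% (444 of 1537) of mature neutrophil-like cells held a Slc16a3 UMI, against 0.665% (10 of 1504) and 1.23% (12 of 979) of late B-like cells. Unthinned shares were 56.2% and 75.6% and, in late B-like cells, 1.63% and 5.29%. Median depths were 1919 and 5024 UMIs in mature neutrophil-like and 3276 and 4612 UMIs in late B-like cells. The mature neutrophil markers in late B-like cells were at 0.515% and 3.02% of their level in mature neutrophil-like cells. On the same scale Slc16a3 was at 1.10% and 3.30% and Slc2a3 at 4.98% and 9.91%. These markers also set the gate, which holds their share in late B-like cells down. The marker share is therefore no gauge of free RNA, and the part of free RNA in these levels was not tested.

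**Figure D3:**
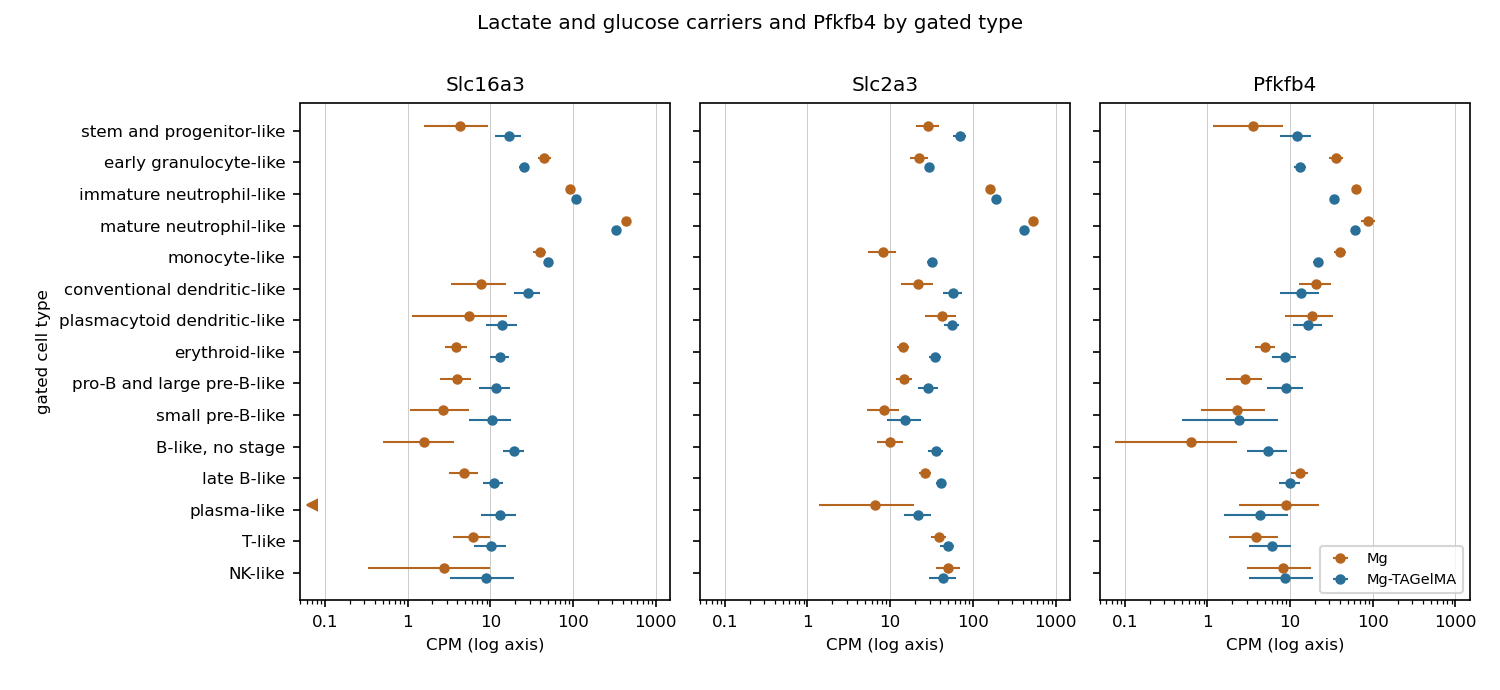
CPM of Slc16a3, Slc2a3 and Pfkfb4 by gated type on a log axis, with exact 95% counting intervals; a triangle marks 0 UMIs. Mature neutrophil-like cells are highest for all 3 genes in both libraries, with Pfkfb4 at 88.2 and 61.4 CPM.

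The Pfkfb enzymes make and break fructose 2,6-bisphosphate, the activator of phosphofructokinase. Pfkfb4 in mature neutrophil-like cells stood at 88.2 and 61.4 CPM against 18.4 and 18.1 CPM in the other gated cells, a ratio of 4.79 (3.83 to 5.92) and 3.39 (3.04 to 3.77). Pfkfb3 was highest in small pre-B-like cells, at 45.5 and 212 CPM. Of the summed Pfkfb3 and Pfkfb4 UMIs, Pfkfb3 made up 95.2% and 98.9% in small pre-B-like cells and 30.4% (22.8 to 38.9) and 66.4% (63.9 to 68.8) in mature neutrophil-like cells. Which gene led in mature neutrophil-like cells therefore differed between the libraries. Pfkfb3 has 75.1 kb of intron and Pfkfb4 35.6 kb, and ratios over all cells moved with intron length (below). Both genes fall in the bin of intron length that starts at 32 kb. In mature neutrophil-like cells the median log2 ratio was -0.015 in that bin and -0.053 for genes with under 2 kb of intron. It was 1.17 in the bin of the longest introns. The part of intron length in this difference was not tested.

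Slc2a1, the glucose transporter GLUT1, was called in no type. Slc2a3 made up 98.1% and 91.8% of the UMIs of both transporters in mature neutrophil-like cells and 44.3% (31.5 to 57.6) and 48.9% (44.8 to 53.03) in monocyte-like cells. In monocyte-like cells, 1 of 18 tested genes of the set were higher (beside 9.08% over all genes) and 1 lower (beside 4.63%). The lower gene was Slc2a3, at 8.14 and 31.7 CPM, 0.153 and 0.245 times the others. The higher gene was Ndrg1, a stress response gene raised by low oxygen, at 88.3 and 77.5 CPM against 19.8 and 31.6 CPM in the other gated cells, a ratio of 4.45 (3.89 to 5.08) and 2.46 (2.25 to 2.68). Stem and progenitor-like cells of the Mg library, at 94.7 CPM, and conventional dendritic-like cells of the Mg-TAGelMA library, at 80.2 CPM, were level with them or above.

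Hexokinases trap glucose in the cell, and the 3 forms divided by lineage. Hk3, known from myeloid cells, stood in immature neutrophil-like cells at 183 and 139 CPM against 31.7 and 63.05 CPM in the other gated cells, a ratio of 5.78 (5.35 to 6.24) and 2.21 (2.10 to 2.33). The call was lost when types were taken from Leiden clusters, after thinning, with a reduced total and without erythroid-like cells. In that type 1 of 17 tested genes of the set were higher (beside 6.71% over all genes) and 1 lower (beside 20.8%), the lower gene being Higd1a, a mitochondrial protein of the hypoxia response, at 27.4 and 30.98 CPM, 0.335 and 0.361 times the others. Early granulocyte-like cells had Hk3 at 276 and 114 CPM, 6.91 (6.35 to 7.51) and 1.54 (1.45 to 1.64) times the others, which missed the rule in the Mg-TAGelMA library. Hk3 was called lower in 10 types: erythroid-like, T-like, NK-like, plasma-like, both dendritic-like and the 4 B types.

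Hk2, the inducible form, made up 80.6% (73.9 to 86.2) and 64.4% (56.9 to 71.4) of hexokinase UMIs in conventional dendritic-like cells and 60.5% and 52.1% in monocyte-like cells. Hk1 made up 95.7% (94.6 to 96.6) and 87.2% (84.3 to 89.7) in erythroid-like cells and 78.03% and 66.9% in T-like cells. Hk3 made up 53.9% and 52.95% in immature and 55.5% and 69.2% in mature neutrophil-like cells.

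**Figure D4:**
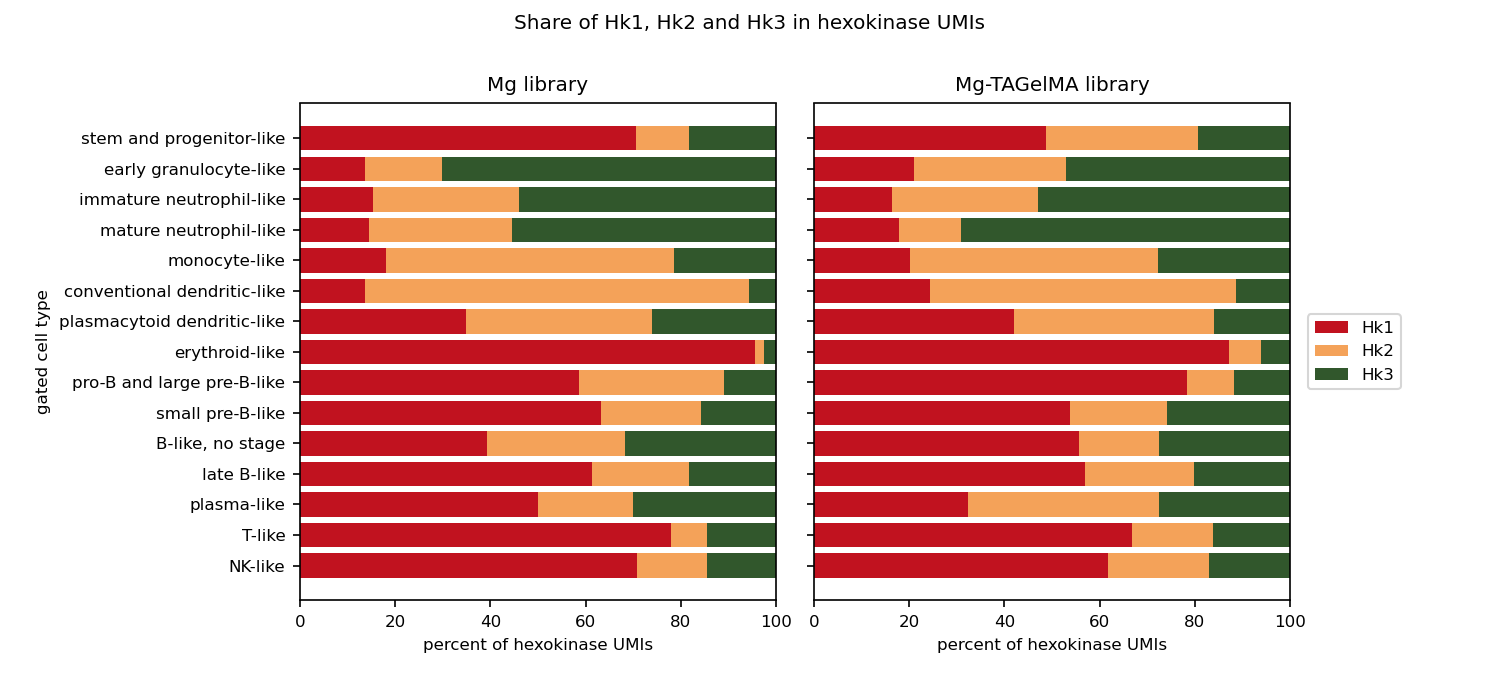
Share of Hk1, Hk2 and Hk3 in their summed UMIs, in percent, by gated type and library. Hk1 makes up 95.7% and 87.2% in erythroid-like cells and Hk2 80.6% and 64.4% in conventional dendritic-like cells.

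Phosphofructokinase commits sugar to glycolysis. In conventional dendritic-like cells, 1 of 17 tested genes of the set were higher (beside 6.67% over all genes) and 1 lower (beside 4.26%). The higher gene was the platelet subunit Pfkp, at 90.96 and 403 CPM against 28.2 and 76.99 CPM in the other gated cells, a ratio of 3.23 (2.59 to 3.99) and 5.23 (4.74 to 5.77). In NK-like cells Pfkp stood at 123 and 176 CPM, 4.38 (3.50 to 5.43) and 2.17 (1.80 to 2.60) times the others and missed the rule. The muscle subunit Pfkm was at 43.97 and 36.1 CPM, 13.1 (10.7 to 15.9) and 14.2 (11.4 to 17.8) times the others in erythroid-like cells, under the 50 CPM minimum.

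Early granulocyte-like cells had the highest share of glycolytic UMIs, and 2 of 18 tested genes of the set were higher (beside 2.52% over all genes) and 0 lower (beside 6.1%). Phosphoglycerate mutase Pgam1 stood at 419 and 556 CPM against 121 and 210.3 CPM in the other gated cells, a ratio of 3.46 (3.24 to 3.68) and 2.64 (2.56 to 2.73). Ldhb, the lactate dehydrogenase subunit known from oxidative tissues, stood at 69.1 and 53.6 CPM against 5.51 and 13 CPM in the other gated cells, a ratio of 12.5 (10.4 to 15.1) and 4.12 (3.70 to 4.59), a call lost with Leiden clusters and after thinning. Plasmacytoid dendritic-like cells had Ldhb at 30.9 and 62.3 CPM and mature neutrophil-like cells at 1.88 and 3.70 CPM. Ldha, the other subunit, was at 187 and 316 CPM in early granulocyte-like cells and at 188 and 164 CPM in mature neutrophil-like cells. Gapdh was at 1142 and 1581 CPM, 1.86 (1.79 to 1.92) and 1.79 (1.76 to 1.83) times the others in early granulocyte-like cells.

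In erythroid-like cells, 1 of 16 tested genes of the set were higher (beside 13.5% over all genes) and 8 lower (beside 18.3%). Hk1 (chromosome 10, 62268855 to 62379908, mm10) stood at 135 and 122 CPM against 33.8 and 43.04 CPM in the other gated cells, a ratio of 3.999 (3.71 to 4.31) and 2.85 (2.59 to 3.12). Pkm was at 17.8 and 62.7 CPM, 0.0594 and 0.148 times the others, Pgam1 at 18.1 and 52.9 CPM, 0.105 and 0.189 times the others and Hif1a at 7.87 and 24.3 CPM, 0.121 and 0.170 times the others. Gpi1, Pgk1, Eno1, Hk3 and Slc2a3 were the other lower genes. The Pgk1 call held under 4 of 10 alternatives, and the Eno1 call was lost after thinning and with a total that leaves out haemoglobin and other abundant genes. Gapdh, at 501 and 738 CPM, was not called. Haemoglobin took 14.8% and 4.63% of erythroid-like UMIs. With the total that leaves it out along with other abundant genes, the Pgk1 and Eno1 calls were lost and the other calls in this type stayed. The part of haemoglobin alone was not tested.

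Erythroid-like cells were also split by haemoglobin share after thinning to 1000 UMIs, a split added after the data were seen. From cells under 20% haemoglobin to cells at 50% or more (309 and 265 Mg cells), Bnip3l, a mitophagy receptor that clears mitochondria from maturing red cells, went from 262 to 694 CPM, a ratio of 2.65 (2.03 to 3.48). In the Mg-TAGelMA library, with 104 and 18 cells, it went from 163 to 556 CPM, a ratio of 3.40 (1.39 to 7.86). Gapdh went from 544 to 41.5 CPM and from 663 to 222 CPM. Haemoglobin, which set the split, is part of the CPM total, so the split itself acts to lower the CPM of other genes. Over all genes, 81.2% and 9.57% had intervals below 1 and 4.75% and 2.54% above 1. Over the whole type Bnip3l was at 248 and 194 CPM, 1.47 (1.40 to 1.54) and 1.31 (1.22 to 1.41) times the others.

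The B types had no gene called higher. In B-like cells without a stage, 0 of 15 tested genes of the set were higher (beside 7.81% over all genes) and 5 lower (beside 6.6%). In small pre-B-like cells, 0 of 15 tested genes of the set were higher (beside 8.92% over all genes) and 5 lower (beside 6.81%), and both types had Hk3, Gpi1, Aldoa, Ldha and Slc2a3 lower. The Aldoa call in both types and the Gpi1 call in cells without a stage were lost with a stricter gate. In late B-like cells, 0 of 15 tested genes of the set were higher (beside 10.2% over all genes) and 5 lower (beside 8.97%), namely Hk3, Tpi1, Gapdh, Ldha and the MYC antagonist Mxi1. Gapdh there was at 310.0 and 304 CPM, 0.452 and 0.291 times the others. The Tpi1 call in late B-like cells was lost with Leiden clusters, after thinning and with the total that leaves out abundant genes. The Gapdh and Ldha calls there were lost after thinning. In pro-B and large pre-B-like cells, 0 of 17 tested genes of the set were higher (beside 4.17% over all genes) and 2 lower (beside 7.94%), namely Hk3 and Slc2a3. In plasma-like cells, 0 of 15 tested genes of the set were higher (beside 2.62% over all genes) and 4 lower (beside 6.63%), namely Hk3, Gpi1, Pgk1 and Slc2a3. The Gpi1 and Pgk1 calls in plasma-like cells were lost with a total that leaves out immunoglobulin and other abundant genes. The median log2 ratio of all genes at 10 CPM or more in this type was -0.30 and -1.11. The part of immunoglobulin alone was not tested.

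In T-like cells, 0 of 17 tested genes of the set were higher (beside 7.34% over all genes) and 2 lower (beside 9.87%), namely Hk3 and Tpi1. Both calls in T-like cells were lost after thinning, and the Tpi1 call also with the total that leaves out abundant genes. Pdk1, which blocks pyruvate dehydrogenase, was highest there, at 112 and 39.2 CPM, 5.92 (5.17 to 6.76) and 3.56 (2.80 to 4.46) times the others, and missed the rule because it did not reach 50 CPM in the Mg-TAGelMA library. In NK-like cells, 0 of 17 tested genes of the set were higher (beside 6.86% over all genes) and 1 lower (beside 6.13%). In plasmacytoid dendritic-like cells, 0 of 17 tested genes of the set were higher (beside 7.48% over all genes) and 1 lower (beside 3.71%). Both of these types had Hk3 as the lower gene. In stem and progenitor-like cells, 0 of 17 tested genes of the set were higher (beside 3.93% over all genes) and 0 lower (beside 6.31%).

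Among oxygen sensors, the HIF hydroxylase gene Egln1 was highest in pro-B and large pre-B-like cells, at 90.4 and 79.5 CPM. Ankrd37, a HIF target, stood in late B-like cells at 19.8 and 14.97 CPM, 9.73 (7.29 to 13.02) and 8.84 (6.48 to 12.01) times the others, under the 50 CPM minimum. Ddit4, an inhibitor of mTORC1, was highest in small pre-B-like cells, at 28.7 and 55.5 CPM. The remaining genes were described by range: Aldoc, Bnip3, Egln3 and Pfkm reached 50 CPM in no type, P4ha1 ranged up to 34.96 and 55.99 CPM, and Pfkl up to 66.9 and 40.8 CPM. In all, 23 of the 34 genes could be called in some type, with the higher side at 50 CPM in both libraries.

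Other genes of the same pathways were read by the same rule. Of 35 further sugar metabolism genes, 13 of 170 tested pairs were higher and 33 lower (7.6% and 19.4%, beside 7.42% and 9.76% over all genes). Of 28 further HIF pathway genes, 7 of 42 tested pairs were higher and 7 lower (16.7% each, beside 7.42% and 9.76% over all genes). Glycogen phosphorylase Pygl was higher in immature neutrophil-like cells, at 546 and 464 CPM, and in mature neutrophil-like cells, at 1141 and 525 CPM. Glycogen synthase Gys1 was higher in immature neutrophil-like cells, at 104 and 55.7 CPM, as were the pentose phosphate genes Tkt and G6pdx. Vegfa was higher in mature neutrophil-like cells, at 121 and 65.2 CPM, and the lactate carrier Slc16a1 in erythroid-like cells, at 197 and 114 CPM. Not all genes of these lists were higher in neutrophil-like cells. In the mature type 3 of the further sugar genes were higher and 2 lower. The higher genes were Pygl and the pentose phosphate genes Pgd, at 555 and 356 CPM, and Taldo1, at 1166 and 1464 CPM. The lower genes were Pgls and Rpia, also of the pentose phosphate pathway, at 65.7 and 51.6 CPM and at 19.7 and 10.1 CPM. Mif, of the HIF list, was lower in the immature type, at 26.2 and 31.0 CPM, and in the mature type, at 34.7 and 32.4 CPM.

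Between the libraries, the rule was applied to the ratio of Mg-TAGelMA to Mg. Over all cells, 6 of 20 tested genes of the set were higher (beside 18.8% over all genes) and 0 lower (beside 7.63%). Pfkfb3 stood at 24.8 and 81.1 CPM, a ratio of 3.28 (3.09 to 3.48). Slc16a3 stood at 31.8 and 86.03 CPM, a ratio of 2.70 (2.56 to 2.85). Pfkp, Hif1a, Mxi1 and Slc2a3 had ratios of 2.77, 2.61, 2.51 and 2.41; the Pfkp call was lost after thinning, and the Mxi1 and Slc2a3 calls with the reduced total. Mature neutrophil-like cells were 5.54% and 21.3% of cells. Within them Slc16a3 stood at 438 and 334 CPM, a ratio of 0.762 (0.691 to 0.843), and Slc2a3 at 531 and 418 CPM, a ratio of 0.787 (0.720 to 0.862). By CPM both ratios were thus below 1 within the type and above 1 over all cells. In this type TMM and median-ratio scaling shift every log2 ratio by 0.37 and 0.34, and the reduced total shifts it by -0.29. Ratios this close to 1 within the type therefore depend on the scaling. Immature neutrophil-like cells had Slc16a3 at 92.1 and 109.6 CPM and Slc2a3 at 162 and 188 CPM.

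Intron length moved with the ratio between libraries. Over all cells the median log2 ratio of genes at 50 CPM or more was -0.34 for genes with under 2 kb of intron, 0.35 in the bin that starts at 32 kb and 1.73 in the bin of the longest introns. Of the higher genes Pfkfb3 has 75.1 kb of intron, Slc2a3 66.6 kb, Mxi1 58.5 kb, Pfkp 55.6 kb, Hif1a 40.3 kb and Slc16a3 7.1 kb. The libraries were counted with Cell Ranger 5.0.0 and 7.0.1, whether reads in introns were counted is not given in the sources used here, and software and nail cannot be told apart.

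**Figure D5:**
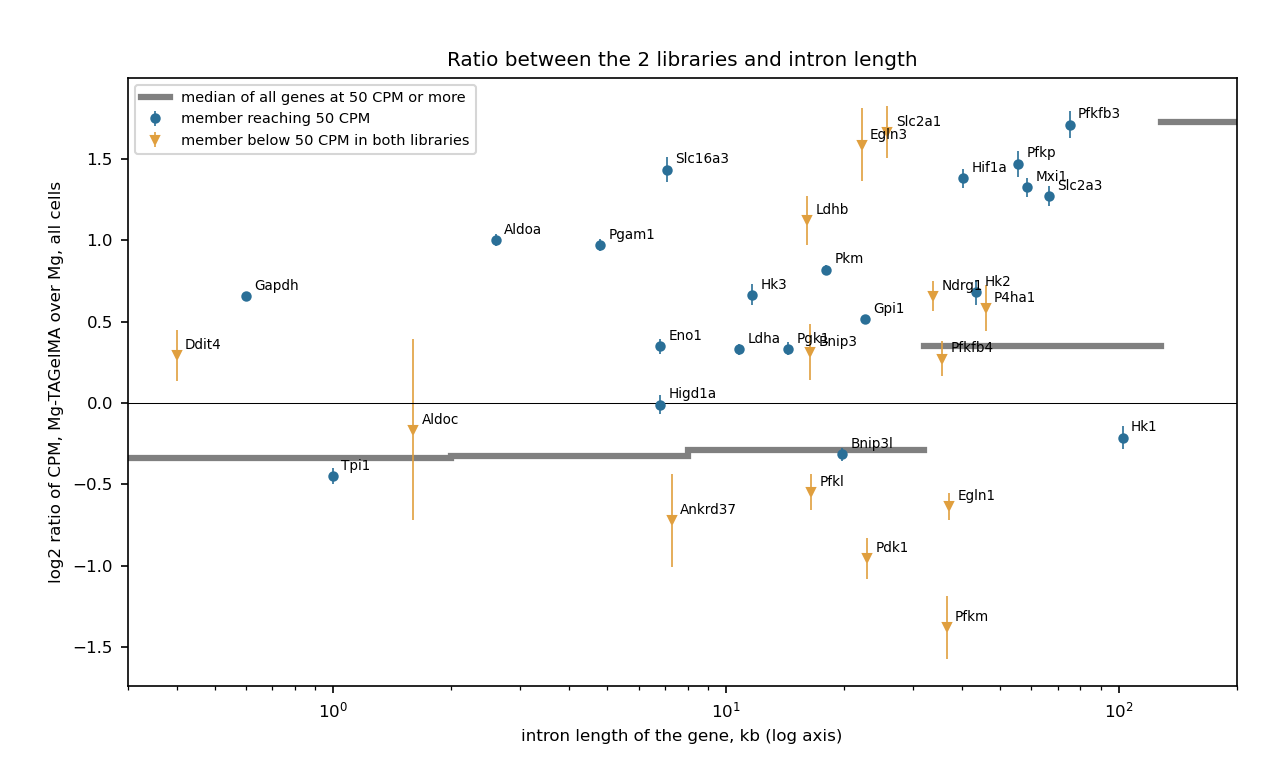
Log2 ratio of CPM over all cells, Mg-TAGelMA over Mg, against intron length in kb (log axis) for the 34 genes, with exact 95% counting intervals; grey bars are medians of all genes at 50 CPM or more in bins of intron length. Pfkfb3 lies at 1.71, Slc16a3 at 1.43 and Hk1, with 102.5 kb of intron, at -0.21.

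Within the 10 types with at least 100 cells in each library, 21 of 167 tested pairs were higher (12.6%, beside 15.9% over all genes) and 4 lower (2.4%, beside 3.12%). Pfkfb3 made up 8 of the 21, with ratios from 2.31 in immature neutrophil-like cells to 5.47 in pro-B and large pre-B-like cells. The immature neutrophil-like call of Pfkfb3 was lost under 4 of 11 alternatives, the mature neutrophil-like call with the reduced total, the monocyte-like call with the reduced total and after thinning, and the small pre-B-like call after thinning. All 4 lower calls were lost after thinning, as were 10 of the 21 higher calls. In mature neutrophil-like cells, 3 of 19 tested genes of the set were higher (beside 13.4% over all genes) and 1 lower (beside 11%). Hif1a there stood at 76.9 and 289 CPM, a ratio of 3.76 (3.02 to 4.75), and Mxi1 had a ratio of 2.90, a call lost after thinning and with the reduced total. The lower gene was Hk2, at 92.9 and 27.7 CPM, a ratio of 0.298 (0.234 to 0.381), with 43.5 kb of intron. In monocyte-like cells, 4 of 20 tested genes of the set were higher (beside 14.6% over all genes) and 0 lower (beside 1.88%), with Hif1a at 80.8 and 269 CPM, a ratio of 3.32 (2.93 to 3.79) and Pfkp at 56.4 and 196 CPM, a ratio of 3.48 (2.99 to 4.07). Beside 15.9% and 3.12% over all genes, further HIF pathway genes had 15 of 47 pairs higher (31.9%) and 1 lower (2.1%). The further sugar genes had 7 of 113 higher (6.2%) and 3 lower (2.7%). Cell cycle genes such as Mki67 had 0 of 91 higher and 21 lower (23.1%). Immediate early and handling stress genes such as Fos had 28 of 95 higher (29.5%) and 8 lower (8.4%). The part of these genes in the ratios above was not tested.

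In T-like cells, 3 of 17 tested genes of the set were higher (beside 20.3% over all genes) and 1 lower (beside 1.84%). Mxi1 stood at 18.9 and 150.2 CPM, a ratio of 7.95 (5.87 to 10.96). Hif1a had a ratio of 2.49, a call lost after thinning and with TMM, median-ratio or reduced-total scaling. The lower gene was Pdk1, at 112 and 39.2 CPM, a ratio of 0.351 (0.272 to 0.450), with 22.9 kb of intron, a call lost with Leiden clusters and after thinning. In late B-like cells, 3 of 15 tested genes of the set were higher (beside 21.5% over all genes) and 0 lower (beside 4.15%), with Slc2a1 at 16.5 and 57.4 CPM, a ratio of 3.49 (2.74 to 4.48). In pro-B and large pre-B-like cells, 2 of 16 tested genes of the set were higher (beside 19% over all genes) and 0 lower (beside 1.15%), with Hk1 at 15.5 and 66.9 CPM, a ratio of 4.33 (3.28 to 5.73), a call lost after thinning. Small pre-B-like cells had 1 higher (15.8%) and 0 lower (1.41%) of 14 and B-like cells without a stage 1 higher (16.5%) and 0 lower (1.59%) of 15, in both types Pfkfb3.

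In immature neutrophil-like cells, 1 of 20 tested genes of the set were higher (beside 9.89% over all genes) and 1 lower (beside 5.35%). The lower gene was Egln1, at 51.7 and 20.9 CPM, a ratio of 0.405 (0.349 to 0.471), with 37.1 kb of intron; this call was lost after thinning and with TMM or median-ratio scaling. In early granulocyte-like cells, 0 of 18 tested genes of the set were higher (beside 9.21% over all genes) and 1 lower (beside 3.46%). The lower gene was Hk3, at 276 and 114 CPM, a ratio of 0.415 (0.380 to 0.454). Immature neutrophil markers in that type summed to 38446 and 16640.3 CPM, and their part in the Hk3 ratio was not tested.

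In erythroid-like cells, 3 of 13 tested genes of the set were higher (beside 15.7% over all genes) and 0 lower (beside 2.07%). Pkm stood at 17.8 and 62.7 CPM, a ratio of 3.53 (2.93 to 4.25), Pgam1 at 18.1 and 52.9 CPM, a ratio of 2.92 (2.41 to 3.54) and Gpi1 at 58.03 and 134 CPM, a ratio of 2.31 (2.06 to 2.59). The Pgam1 and Gpi1 calls were lost with Leiden clusters and with TMM or median-ratio scaling, and all 3 after thinning, where the Pgam1 ratio was 0.963. Immature neutrophil markers there summed to 1159 and 4037 CPM and mature neutrophil markers to 98.7 and 1281 CPM, median depths were 5210.0 and 23599.5 UMIs, and cell numbers were 863 and 156. Their part in these ratios was not tested.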

How the data were processed

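Single-cell RNA was measured in 2 libraries, 1 per nail. The authors deposited UMI counts per gene and barcode, made with Cell Ranger 5.0.0 (Mg) and 7.0.1 (Mg-TAGelMA) per the file headers; the submitters' processing notes name mm10. Barcodes over 15% mitochondrial UMIs or under 200 genes were left out, as were doublets called per library with Scrublet in scanpy 1.11.5 (197 and 297 barcodes). Of 21 marker lists, all but the osteoclast list were used to gate cells (score of at least 0.3, margin 0.2, at least 3 markers). Counts were summed per type and scaled to CPM; ratios have exact 95% binomial intervals, which cover counting error only. A pair was called when its interval lay beyond 2-fold and the higher side reached 50 CPM. Genes named were those called, the 4 most abundant and those highest in a type; genes that narrowly missed a call were chosen after their values were seen. The genes, lists and rules were chosen with earlier results of these data known. Eno1 has a near-identical copy, Eno1b, so its counts are uncertain. Scripts were tested on simulated data. Alternatives varied filters, gates, depth and scaling, with factors from edgeR 4.0.16 (TMM) and DESeq2 1.42.0 (median ratio).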

Additional observations from a re-analysis of the deposited data

How the results depend on the processing

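Between types, 9 pairs were higher and 37 lower. Thinning to 1000 UMIs gave 5 and 14, of which 4 and 8 were among the pairs first called, a bound of 1.5-fold gave 29 and 66, and a minimum of 10 CPM gave 16 and 67. Leaving erythroid-like cells out of the comparison gave 9 and 53. Of the 9 higher pairs 4 were called under all alternatives with a value (Pgam1 in early granulocyte-like and Pfkfb4, Slc2a3 and Slc16a3 in mature neutrophil-like cells), and 10 of the 37 lower pairs. Between libraries, 21 pairs were higher and 4 lower within types, and 6 genes higher and 0 lower over all cells. A bound of 1.5-fold gave 33, 11, 12 and 0, and a minimum of 10 CPM gave 36, 7, 8 and 1. Genes with at most 8 kb of intron, scaled to their own total, gave 4, 0, 3 and 0. This changes the genes and the total together: 1 of the 21 pairs and 1 of the 6 genes first called have introns that short and both stayed called, and the total raised ratios over all cells by 0.18 (log2). Leiden clusters gave 2 lower pairs and thinning 1. A total without mitochondrial, ribosomal protein, haemoglobin and immunoglobulin genes, Gm42418 and AY036118 gave 16 higher and 6 lower pairs. TMM scaling gave 19 and 5 and moved the median of all genes by 0.37 in mature neutrophil-like and -0.51 in erythroid-like cells (log2). The ratio of Pgam1 in erythroid-like cells reversed to 0.963 after thinning. Of these 4 lower pairs 0 were called under all alternatives, and of 27 higher results, all cells included, 13 were. Where no cause is named, the cause was not tested. No paired analysis was possible because each nail has 1 library. Depth limits the smaller types: levels below 50 CPM were not called.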

Other observations

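Mature neutrophil-like cells were split by whether they held a UMI of Il1b, an inflammatory cytokine gene, and pro-B and large pre-B-like cells by UMIs of cycling genes (0 against 2 or more), after thinning to 1000 UMIs. Both splits were added after the data were seen and compare cells within a library, so there is no test. From Il1b-negative to Il1b-positive cells of the Mg-TAGelMA library (575 and 962 cells), Hif1a went from 231 to 375 CPM, a ratio of 1.62 (1.33 to 1.99), and Pfkfb4 from 41.7 to 77.96 CPM, a ratio of 1.87 (1.17 to 3.09). Gpi1 went from 536 to 389 CPM, a ratio of 0.726 (0.623 to 0.847), and Gapdh from 1313 to 1052 CPM, a ratio of 0.801 (0.728 to 0.882). Over all genes 23.1% had intervals above 1 and 10.9% below 1. In the Mg library, with 323 and 52 cells, the Hif1a ratio was 0.365 (0.0425 to 1.43), from 34 and 2 UMIs, that of Pfkfb4 1.499 (0.554 to 3.50), that of Gpi1 0.878 (0.569 to 1.31) and that of Gapdh 0.999 (0.614 to 1.56); all 4 intervals include 1.

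Pro-B and large pre-B-like cells with 0 UMIs of cycling genes were set against those with 2 or more. Thinned cells with 0 such UMIs may still be cycling. In the Mg library (67 and 209 cells) Gapdh went from 597 to 1119.6 CPM, a ratio of 1.88 (1.34 to 2.69). In the Mg-TAGelMA library (56 and 44 cells) it went from 429 to 909 CPM, a ratio of 2.12 (1.25 to 3.68). Over all genes 9.8% and 6.96% had intervals above 1 and 15.2% and 5.63% below 1. Among genes of the set at 50 CPM, Tpi1, Pgam1 and Ldha had intervals above 1 in the Mg library alone. Their ratios were 2.67, 7.37 and 3.37 there and 0.424, 3.39 and 1.09 in the Mg-TAGelMA library. Hk1 and Ddit4 had intervals below 1 in the Mg-TAGelMA library alone. Gpi1 had ratios of 0.939 (0.501 to 1.86) and 1.09 (0.303 to 3.79).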
